A study of Drosophila melanogaster with 10 samples.

Results

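The male larval brains of a Drosophila melanogaster strain with few histone gene repeats, 12xWT, were compared with those of yw, which has the usual large number. By its labels yw carries 200 repeats and 12xWT carries 12. All libraries labelled male entered the comparison, 3 of 12xWT and 2 of yw, 5 of the 10 libraries of the study. The other 5 were female brains of the same genotypes, 3 and 2 libraries, and serve below only as a second set of libraries and for the test of a difference between the sexes. Each library was made from 25 brains of wandering third-instar larvae, the stage just before pupation, by polyA selection. The labels give no treatment, and they do not say how the 12 repeats are carried in the genome, on which chromosome, or how closely the stocks are related otherwise. Each repeat number belongs to a single stock here, so an effect of repeat number and any other difference between the stocks cannot be told apart. Nothing in the labels says whether replicate libraries came from separate crosses, so the p-values measure the spread between these libraries.

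A histone gene repeat of the fly holds a copy of each replication-dependent histone gene, H1, H2A, H2B, H3 and H4, and the repeats lie in tandem on chromosome arm 2L. They supply the histones that package new DNA during S phase, and their messages end in a stem-loop and not in a polyA tail. Polycomb group proteins keep developmental regulators, among them the Hox genes, silent through methylation of lysine 27 and ubiquitination on histone tails, and Trithorax group proteins act against that silencing. The title of the study names reduced histone gene copy number and Polycomb function as its question. In the larval brain, neuroblasts divide to give neurons and glia, and the Hox genes are transcribed in segments of the ventral nerve cord.

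Counts assigned to genes were 57.2 and 61.5 M in the yw libraries and 79.9, 52.5 and 57.2 M in the 12xWT libraries. Levels below are counts per 1 M counts (CPM), given in replicate order, and in a male library with no count for a gene the upper limit, from 3 counts, lay between 0.0375 and 0.0571 CPM, for counting error only. Fold changes are 12xWT over yw on a log2 scale. Of 16727 genes in the table, 15000 had a count in a male library and 10858 were tested. A gene was called when the Benjamini-Hochberg adjusted p of edgeR's quasi-likelihood test was under 0.05, and every adjusted p below is from that test unless DESeq2 is named. The first principal component held 69.4% of the variance and separated the genotypes, with yw at -36.2 and -41.8 and 12xWT at 22.8, 21.5 and 33.6. The second held 12.1%, and 12xWT replicate 3 stood apart on it at 21.8. In that library 63 genes exceeded 2 CPM and were more than 2.5 times as high as in every other male library, against 3, 0, 1 and 0 genes in 12xWT replicates 1 and 2 and yw replicates 1 and 2. Pan-neuronal elav stood at 1578 and 1527 CPM in yw against 1561, 1592 and 1438 in 12xWT, and glial repo at 115 and 120.0 against 99.0, 113 and 105 CPM. These are single markers of neurons and glia, and neither was called. At repo all 12xWT libraries lay below both yw libraries, an order that 22.6% of all tested genes had. In the lists below 11 of 24 neuron genes were lower and 0 higher, and 5 of 20 glial genes lower and 2 higher. Over all tested genes 7.86% were lower and 8.95% higher. In bulk tissue, fewer cells of a type and less RNA per cell cannot be told apart.

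The genotypes differed widely, mostly by small amounts. In 12xWT males 972 genes were higher (8.95% of those tested) and 853 lower (7.86%), 16.8% in all. The called genes had a median absolute log2 fold change of 0.39, and the signed median over all tested genes was 0.003. Changes of at least 2-fold made up 25.3% of the calls, 322 higher (2.97%) and 140 lower (1.29%). With library size alone in place of TMM scaling, 9.57% were higher and 6.5% lower, so that 59.5% of the calls were higher, against 53.3%. Calls were spread over levels, with 11.4% of genes under 1 CPM called, 18.6% from 1 to 10, 18.7% from 10 to 100 and 16.5% at 100 or more. The groups' libraries did not overlap at 5608 genes (51.6%), with 12xWT above at 29% and below at 22.6%. The number of calls depended on both yw libraries. Without yw replicate 1 there were 250 higher (2.22%) and 194 lower (1.72%), and without yw replicate 2 there were 213 (1.9%) and 151 (1.35%). Without 12xWT replicates 1, 2 and 3 the shares were 10.1%, 7.32% and 7.76% higher and 8.58%, 5.44% and 5.85% lower. The shares of each fit without a library are those to set beside any count below from the same fit. DESeq2 called 11% higher and 9.39% lower, a fit with the replicate number as a block 7.1% and 4.37%, and genes sharing no exon with another gave 8.36% and 6.79%. In all 5 fits that left out a library, 306 of the 1825 genes were called, 179 higher and 127 lower, and their median absolute change was 1.11 on the log2 scale.

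**Figure D1:**
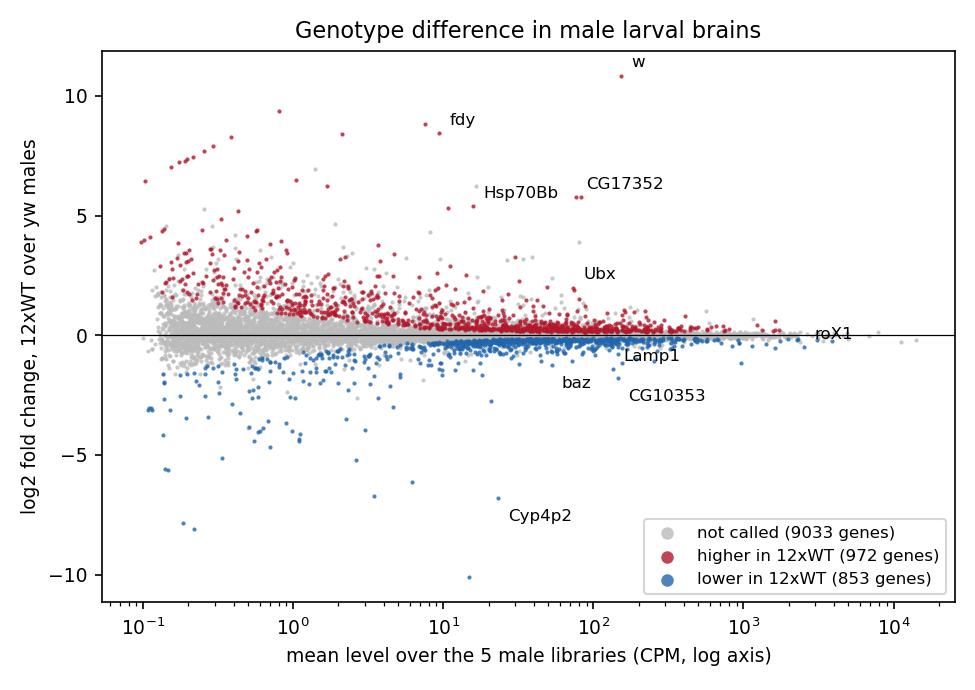
The log2 fold change of 12xWT over yw males (vertical axis) against the mean level over the 5 male libraries in CPM (horizontal, log axis) for the 10858 tested genes, with 972 called higher in red, 853 called lower in blue and the rest in grey. Most called genes lie close to 0, with w and Cyp4p2 among the few far from it.

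The 8 largest rises, among called genes that reached 5 CPM, did not overlap between groups and shared no exon with another gene, ran from w to CG31676. White, w (X chromosome, 2790599 to 2796466 on dm6, minus strand, FBgn0003996), which encodes an eye pigment precursor transporter and is mutated in yw by name, checked the labels. It stood at 0.175 and 0.0975 CPM in yw against 224, 263 and 272 in 12xWT, 10.84 higher on the log2 scale (SE 0.21, edgeR adjusted p = 1.04e-05). The yellow gene y, needed for dark body pigment and also mutant in yw by name, rose by 3.17 (SE 0.24, edgeR adjusted p = 0.000291), from 0.385 and 0.309 CPM to 2.75, 3.03 and 3.74 CPM. Every library matched its genotype label at both genes.

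CG17352 (chromosome 3L, 8352355 to 8356296, minus strand) and CG10936 (FBgn0034253, chromosome 2R, 17604951 to 17639138, minus strand) were nearly silent in yw and abundant in 12xWT. CG17352 stood at 2.13 and 2.42 CPM in yw against 135, 121 and 121 in 12xWT (log2 fold change 5.77, SE 0.092, edgeR adjusted p = 2.33e-07). CG10936 stood at 2.85 and 2.06 against 129.7, 133 and 142 CPM (5.77, SE 0.13, edgeR adjusted p = 1.04e-05). Both were 54.5-fold higher, with replicate libraries close together. The neighbouring genes CG17028 (FBgn0036552, chromosome 3L, 15978524 to 15980004, plus strand) and CG17027 (FBgn0036553, 15980100 to 15981888, plus strand) rose together by 3.78 (SE 0.16) and 3.41 (SE 0.14), to between 5.52 and 7.48 CPM from 0.764 CPM or less. CG31676 (chromosome 2L) rose by 3.26 (SE 0.28, edgeR adjusted p = 0.0066), from 5.24 and 4.42 to 34.6, 53.6 and 52.5 CPM, and lost its call without either yw library (adjusted p of up to 0.0879). The remaining members of this set, the Y-linked fdy and the heat shock gene Hsp70Bb, are described with their groups.

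The largest falls were led by cytochrome P450 genes, enzymes that oxidise lipids and foreign compounds. Cyp4p2 (FBgn0033395, chromosome 2R, 9237512 to 9239831, plus strand) stood at 57.8 and 55.6 CPM in yw against 0.488, 0.571 and 0.507 in 12xWT, 110.3-fold lower (log2 fold change -6.79, SE 0.072, edgeR adjusted p = 2.19e-08). Its neighbour Cyp4p1 (FBgn0015037, 9240041 to 9242139, same strand) had 14.3 and 16.0 against 0.275, 0.190 and 0.175 CPM (-6.11, SE 0.17, edgeR adjusted p = 2.88e-06). Reads may be split uncertainly between these similar genes. CG30002, also on 2R, fell by 5.22 (SE 0.32) from 6.26 and 6.37 CPM to 0.250, 0.0762 and 0.157 CPM. On the X chromosome the neighbours CG32686 (10371717 to 10375316) and CG32681 (10376651 to 10381352) fell by 3.02 (SE 0.11) and 2.64 (SE 0.17), from between 7.06 and 9.77 CPM to between 0.962 and 1.35 CPM. The other 3 of the 8 largest falls were CG7366, CG9451 and CG10353, at -2.14 (SE 0.13), -2.05 (SE 0.25) and -1.77 (SE 0.044), with edgeR adjusted p-values of 0.000124, 0.00381 and 2.48e-06. All 8 kept their call whichever library was omitted.

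**Figure D2:**
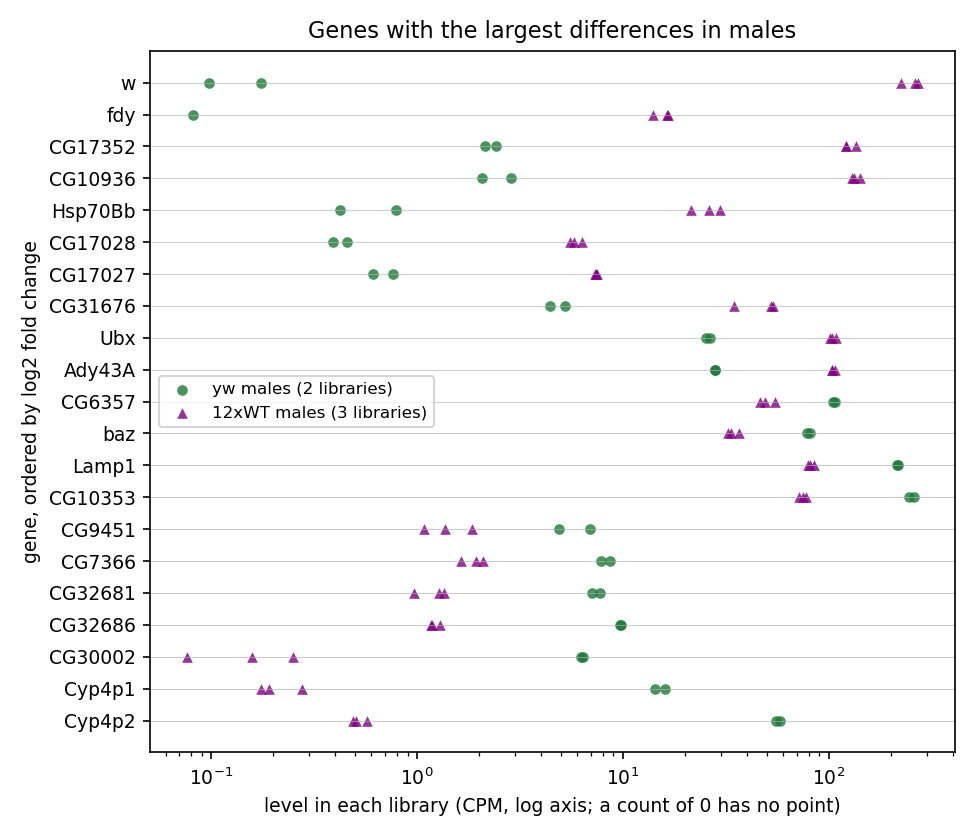
Level in CPM (log axis) in each male library for the genes with the largest differences, ordered by log2 fold change, with yw libraries as circles and 12xWT libraries as triangles. The genes were chosen for groups that do not overlap and for large differences, so the separation follows from that choice. At CG10936 the libraries stood at 2.06 to 2.85 CPM against 129.7 to 142 CPM.

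Among genes that reached 50 CPM in the higher genotype, shared no exon with another gene and had no overlap between groups, the 5 largest rises and the 5 largest falls added Ubx, Ady43A, Lamp1, baz and CG6357 to those above. Ady43A, annotated as an adenosine kinase (chromosome 2R, 7243024 to 7245776, minus strand), stood at 28.0 and 28.1 CPM in yw against 104, 104 and 108 in 12xWT (log2 fold change 1.89, SE 0.040, edgeR adjusted p = 1.02e-06). Lamp1, a lysosome membrane protein (FBgn0032949, chromosome 2L, 21573389 to 21577103, plus strand), stood at 218 and 214 CPM against 84.8, 81.6 and 79.0 CPM (-1.42, SE 0.042, edgeR adjusted p = 4.07e-06). CG10353 (FBgn0030349, chromosome X, 11877737 to 11887162, minus strand) stood at 259 and 246 CPM against 77.2, 71.7 and 74.9 CPM. The 12xWT libraries of each of these genes differed among themselves by far less than from yw, which the rule that chose the genes favours. The polarity gene baz, the fly Par-3 that marks the apical side of dividing neuroblasts, stood at 78.7 and 81.4 CPM against 33.6, 32.6 and 36.6 CPM (-1.24, SE 0.054, edgeR adjusted p = 2.01e-05). CG6357 stood at 105 and 107 against 46.5, 49.1 and 54.7 CPM (-1.10, SE 0.065, edgeR adjusted p = 0.000124). These 5 and CG10353 kept their call with any 1 of the 5 libraries left out.

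The replication-dependent histone genes themselves were almost unmeasured. Of 111 copies in the table, 1, His2B:CG33868, had a count in a male library, with 7 and 8 counts in yw and 0, 1 and 0 in 12xWT. On the log2 scale with 0.5 added, the summed level differed by -3.54, and a two-sided exact permutation test gave p = 0.2, the smallest that 3 against 2 libraries allow. PolyA selection and the counting of uniquely mapped reads both act against these genes, so the counts are no measure of histone message. His2Av, the H2A variant used outside S phase, fell by 0.19 (SE 0.049, edgeR adjusted p = 0.0399), from 509 and 550.1 CPM to 487, 452 and 469 CPM. It was the only call among 5 tested variant genes (median -0.06), and it was lost without either yw library and without 12xWT replicate 2 or 3. None of 9 genes of the histone locus body and of histone message processing was called, where 16.8% of all tested genes were. They ran from -0.50 to 0.45 with a median of -0.06, 1 had an unadjusted p under 0.05, and DESeq2 called 0 of them. Of 14 histone chaperone genes 6 had an unadjusted p under 0.05 and 1 was called lower, the nucleoplasmin gene Nlp at -0.13 (SE 0.035, edgeR adjusted p = 0.0419), which lost the call without either yw library and without 12xWT replicate 1 or 2.

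Of the Hox genes 1 of 8 rose, where 8.95% of all genes did. It was Ubx, which specifies the identity of the posterior thorax and anterior abdomen. Ubx (FBgn0003944, chromosome 3R, 16656623 to 16734426, minus strand) stood at 26.6 and 25.4 CPM in yw against 104, 109 and 101 in 12xWT, 3.98-fold higher (log2 fold change 1.99, SE 0.052, edgeR adjusted p = 2.48e-06). The increase was of the same size in each 12xWT library, and the call held with any 1 of the 5 libraries left out. The posterior neighbours of Ubx behaved otherwise. Abd-B stood at 7.71 and 8.60 CPM in yw against 6.51, 9.41 and 24.9 in 12xWT, and abd-A at 45.1 and 47.0 against 37.7, 43.6 and 102 CPM. Scr, a head and thorax Hox gene, stood at 14.95 and 14.97 against 15.01, 17.1 and 44.6 CPM. All 3 were highest in 12xWT replicate 3. In the other 12xWT libraries Abd-B overlapped with yw, abd-A lay just below both yw libraries and Scr just above them. Without that library their log2 fold changes were -0.06 for Abd-B, -0.20 for abd-A and 0.09 for Scr, against 0.71, 0.39 and 0.75 with it, and none was called either way.

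The Polycomb machinery showed no large change. Of 25 Polycomb group genes 0 were higher and 1 was lower, against 8.95% and 7.86% of all genes. Their median was -0.07, 22 of 25 were below 0 and 7 had an unadjusted p under 0.05. DESeq2 called 1 of them higher and 1 lower, against 11% and 9.39% of all genes. The gene called lower by edgeR was Asx, part of the complex that removes ubiquitin from histone H2A. It stood at 202 and 197 CPM in yw against 173, 182 and 177 in 12xWT (-0.19, SE 0.037, edgeR adjusted p = 0.0159). Of 25 Trithorax group genes 1 was lower, wds, a core subunit of the methyltransferases of lysine 4 on histone H3 (-0.18, SE 0.046, edgeR adjusted p = 0.0373). Neither kept its call without either yw library, and wds also lost it without 12xWT replicate 2 or 3.

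Of 71 tested transcription factor and Wnt genes known as Polycomb targets, 5 rose and 2 fell against 8.95% and 7.86% of all genes, and their median was 0.05, from 0.01 to 0.10 with a library left out. Sox14, an ecdysone-induced factor of neurite pruning, stood at 109 and 99.5 CPM in yw against 169, 195 and 203 in 12xWT (0.84, SE 0.089, edgeR adjusted p = 0.00398). It was the 1 call that held without each library in turn, and its exons overlap those of Phm. The gap genes knrl and kni, neighbours that encode nuclear receptor-like factors, rose by 1.81 (SE 0.34) and 1.32 (SE 0.29), with kni at 2.26 and 1.87 against 4.57, 3.88 and 7.14 CPM. The POU factor gene pdm2 rose by 0.98 (SE 0.16) from 6.43 and 5.53 CPM to 9.65, 12.9 and 13.4 CPM, and Wnt10 by 0.39 (SE 0.11). The wing gene vg fell by 0.25 (SE 0.056) and the neuroblast gene dpn by 0.29 (SE 0.079). Without yw replicate 1 or 2 only 1 of the 71 was higher and 0 lower, and without 12xWT replicate 3 there were 6 and 0. Under the replicate block there were 9 and 0, and DESeq2 called 11 and 5.

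Genes of DNA replication were lower as far as they were called. Of 30 tested, 8 fell and 0 rose, with 27 below 0 and a median of -0.15, where 7.86% of all genes were lower and 8.95% higher. The replication licensing inhibitor geminin fell most, from 74.6 and 78.9 CPM to 60.0, 57.1 and 56.3 CPM (-0.43, SE 0.047, edgeR adjusted p = 0.00182), and was called without each library in turn. PCNA, the sliding clamp of the polymerase, stood at 119 and 137 CPM against 108, 103 and 103 CPM (-0.31, SE 0.061, edgeR adjusted p = 0.0175). All 12xWT libraries lay below both yw libraries at either gene, an order that 22.6% of all tested genes had. The others were dup, geminin's partner, the helicase subunit gene Mcm7, the ribonucleotide reductase gene RnrL, the polymerase genes DNApol-alpha50 and DNApol-delta and the single-strand binding gene RpA-70, between -0.29 and -0.16. Without yw replicate 1 or 2 there were 3 and 1 lower, and without 12xWT replicate 2 or 3 there were 3 and 4. The replicate block left 2.

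Of 33 cyclin and mitosis genes 5 fell and 0 rose (median -0.10, and -0.06 without yw replicate 2 or 12xWT replicate 2), with 7.86% and 8.95% over all genes. The Aurora B kinase gene ial, which acts at kinetochores and in cytokinesis, stood at 66.2 and 71.9 CPM in yw against 49.2, 48.2 and 47.6 in 12xWT (-0.53, SE 0.048, edgeR adjusted p = 0.000673). Of the 5 it was the only gene to keep its call whichever library was omitted. CycA, Klp3A, tum and Spc25 fell by between 0.17 and 0.21. Without yw replicate 1 or 2 there were 2 and 1 lower, without 12xWT replicate 2 or 3 there were 1 and 2, and 1 under the replicate block. Without 12xWT replicate 3, 1 gene of the list was called higher. The neuroblast list, 17 genes, held 1 lower call, dpn, a repressor that keeps neuroblasts self-renewing, at 13.2 and 13.2 against 11.9, 10.5 and 10.4 CPM (-0.29, SE 0.079, edgeR adjusted p = 0.0473), which DESeq2 did not call (adjusted p = 0.0560) and which was lost without either yw library and without 12xWT replicate 2 or 3. No optic lobe gene of 18 was called by edgeR, with 5 at an unadjusted p under 0.05, and DESeq2 called 2 lower.

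Of 24 tested genes of mature neurons 11 were lower and 0 higher, with a median of -0.15, against 7.86% of all genes lower. Vmat, which loads dopamine and serotonin into vesicles, fell most, from 193 and 199 CPM to 126, 102 and 114 CPM (-0.80, SE 0.086, edgeR adjusted p = 0.00407). The voltage-gated sodium channel gene para stood at 331 and 342 against 247, 192 and 208 CPM (-0.66, SE 0.11, edgeR adjusted p = 0.0219). Gad1, the enzyme that makes GABA, stood at 115 and 123 against 89.1, 77.1 and 75.5 CPM (-0.58, SE 0.079, edgeR adjusted p = 0.00679). No 12xWT library reached the lower yw library at any of these, an order that 22.6% of all tested genes had. The active zone gene brp fell by 0.34 (SE 0.059) and the potassium channel gene Shab by 0.41 (SE 0.081), and futsch, VGlut, Cha, VAChT, nSyb and Syx1A fell by between 0.14 and 0.31. The pan-neuronal elav was at -0.04 (SE 0.058, edgeR adjusted p = 0.699). Calls became fewer without either yw library, as they did over all tested genes. The list median was then -0.15 without yw replicate 1 and -0.16 without yw replicate 2. Summed over the list, the level was 14376 and 14255 CPM in yw against 14100, 13466 and 12677 in 12xWT, lowest in replicate 3, and without that library 9 were lower and 1 higher. Without 12xWT replicate 2 there were 8 lower and 1 higher.

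Of 20 glial genes 5 fell and 2 rose, next to 7.86% lower and 8.95% higher among all genes. The transporter gene ine stood at 26.2 and 25.9 CPM in yw against 12.7, 11.7 and 11.1 in 12xWT (-1.15, SE 0.070, edgeR adjusted p = 0.000124), and its exons overlap those of CG17840. The astrocyte gene alrm fell by 0.53 (SE 0.060) from 115 and 122 CPM to 83.0, 77.4 and 89.1 CPM, and wrapper, a gene of midline and cortex glia, by 0.51 (SE 0.049). These 3 were called without each library in turn. CG1732, the GABA transporter gene Gat, fell by 0.73 (SE 0.13) and the glutamate transporter gene Eaat1 by 0.34 (SE 0.058). The engulfment receptor gene drpr rose by 0.29 (SE 0.052), from 167 and 165 CPM to 191, 212 and 213 CPM, and loco by 0.28 (SE 0.063). Without yw replicate 1 or 2 there were 3 lower and 0 higher in each case. Of 27 neuropeptide genes 5 fell (7.86% of all genes) and 0 rose, Dh31, NPF, Tk, sNPF and Hug, between -0.48 and -0.26. Dh31, a diuretic hormone also used in the clock circuit, stood at 30.6 and 32.1 against 23.2, 22.6 and 23.3 CPM (-0.46, SE 0.046, edgeR adjusted p = 0.0012). It was the one neuropeptide call held in all 5 fits, and the list had 2 and 1 lower without yw replicate 1 or 2 and 3 without 12xWT replicate 2. Of 9 nicotinic receptor genes 1, nAChRalpha6, fell by 0.35 (SE 0.067, edgeR adjusted p = 0.0174), a call lost without either yw library and without 12xWT replicate 2.

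The called stress chaperone genes were all higher. Inducible Hsp70 and Hsp68 genes, which are nearly silent without heat or other protein damage, were higher at 4 of 5 tested, with a median of 3.10, where 8.95% of all genes were higher. Hsp70Bb (FBgn0013278, chromosome 3R, 12505793 to 12508139, plus strand) stood at 0.787 and 0.423 CPM in yw against 26.2, 29.6 and 21.4 in 12xWT, 42.3-fold higher (log2 fold change 5.40, SE 0.30, edgeR adjusted p = 0.00123). It was called without each library in turn. The copies of Hsp70 are nearly identical and counting kept unique reads, so how reads divide among them is uncertain. Hsp68 stood at 17.5 and 17.2 against 51.4, 92.98 and 65.8 CPM (3.99-fold higher, SE 0.32 on the log2 scale, edgeR adjusted p = 0.0326), with exons that overlap CG6000 and CR44097, and was not called without either yw library or 12xWT replicate 3. All 12xWT libraries lay above both yw libraries at each of the 5 genes, Hsp70Bbb included (edgeR adjusted p = 0.0536), an order that 29% of all tested genes had. Without yw replicate 2 only 1 of the 5 was called. Small heat shock protein and cochaperone genes were higher at 4 of 9 (median 0.42). Hsp23 stood at 1188 and 1294 against 1699, 2044 and 1886 CPM (0.58, SE 0.085, edgeR adjusted p = 0.00679), and Hsp27, Hsp67Bc and stv rose by 0.43, 0.91 and 0.42. These 4 calls were all lost without either yw library, and 2 of the 9 genes were called without 12xWT replicate 3.

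In females none of the 5 Hsp70 and Hsp68 genes was called, with 1 at an unadjusted p under 0.05, nor any of the 9 small ones, with 0. Hsp68 was already at 74.2 and 42.1 CPM in yw females, above both yw male libraries, and at 56.8, 38.9 and 184 CPM in 12xWT females. For Hsp70Bb, at 6.54 and 3.01 CPM in yw females and 26.2, 24.7 and 42.3 CPM in 12xWT females, the difference between the sexes was not called (edgeR adjusted p = 1). DESeq2 called all 5 Hsp70 and Hsp68 genes in males.

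The called immune genes were all higher. Of 18 tested genes of the Toll and Imd pathways, which sense microbes and switch on antimicrobial peptides, 5 were higher and 0 lower. Their median was 0.18, and 0.11 without 12xWT replicate 3. Over all tested genes, the share to set beside each count in this paragraph, 8.95% were higher and 7.86% lower. The Imd inhibitor gene pirk stood at 0.0874 and 0.0813 CPM in yw against 0.663, 0.724 and 0.909 in 12xWT (3.13, SE 0.35, edgeR adjusted p = 0.00184). The Toll ligand gene spz stood at 16.4 and 16.8 against 23.3, 26.9 and 26.2 CPM (0.60, SE 0.071, edgeR adjusted p = 0.00229), and its exons overlap CG43935. Both held without each library. The recognition gene PGRP-SA and the NF-kappaB factor genes dl and Rel were the other calls, of which Rel was lost without any 1 of the 5 libraries, with 2 genes of the list higher without either yw library. Of 18 antimicrobial peptide genes 6 were measured well enough to test and AttB alone was higher (2.28, SE 0.33, edgeR adjusted p = 0.00532), at most 1.37 CPM and not called without yw replicate 1. Of 18 genes of p53 signalling, DNA damage and cell death 4 rose and 1 fell (median 0.17). The matrix metalloprotease gene Mmp1, a target of JNK signalling, stood at 37.3 and 36.7 against 90.0, 121 and 115 CPM (1.53, SE 0.14, edgeR adjusted p = 0.00533), with exons that overlap Pof. The double-strand break repair gene mre11 rose by 0.42 (SE 0.054, edgeR adjusted p = 0.00337), egr, the fly TNF, by 0.23 and CG6272 by 0.27, and skl, a cell death activator, fell by 0.18. Without either yw library 1 rose, mre11, and 0 fell, and CG6272 lost its call without any 1 of the 5 libraries.

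Hormone genes differed less clearly. The ring gland, which is often dissected along with the brain, makes ecdysone from sterols. Of 14 of its marker genes 1, kni, was called (16.8% of all genes), 12 were above 0 and the median was 0.88. It was 1.66 without yw replicate 1, 0.40 without yw replicate 2 and 0.50 without 12xWT replicate 1. The enzyme gene phm stood at 77.7 and 26.6 CPM in yw against 153, 76.6 and 112 in 12xWT (1.11, SE 0.65, edgeR adjusted p = 0.342), and sad and spok were likewise highest in 12xWT replicate 1 and lowest in yw replicate 2. At phm the level of 12xWT replicate 2 lay between the yw replicates. Without yw replicate 2 the log2 fold change of phm was 0.53 and without yw replicate 1 it was 2.08. In females yw stood at 50.04 and 74.2 CPM and 12xWT at 123, 133 and 127 CPM. There 9 of the 14 genes were called higher, against 7.65% of all genes tested in females. Under the replicate block 10 of 14 were called in males, and DESeq2 called 4. Of 12 genes of the ecdysone response 2 rose (8.95% of all genes), Eip75B by 0.22 (SE 0.051) and Eip71CD by 0.18 (SE 0.049). Among 16 insulin pathway and 7 juvenile hormone genes 1 of each rose. The insulin receptor gene InR rose by 0.28 (SE 0.059, edgeR adjusted p = 0.0206), and the juvenile hormone response gene Kr-h1 by 0.22 (SE 0.047, edgeR adjusted p = 0.0223). All 4 calls were lost without either yw library.

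Fat body genes had no call among 14 by edgeR, with 3 at an unadjusted p under 0.05 and 3 higher and 1 lower by DESeq2, but Fbp1, a storage protein receptor, stood at 15.03 and 2.02 CPM in yw against 118, 14.6 and 249 in 12xWT. The summed level of 18 tracheal and cuticle genes was 134 and 123 CPM in yw against 149, 173 and 283 in 12xWT, highest in replicate 3. Of the 15 tested 3 rose and 1 fell, against 8.95% and 7.86% of all genes. Their median was 1.18, and 0.38 without 12xWT replicate 3 and 0.20 under the replicate block. The ecdysone-inducible ImpE2 and the apical matrix genes pio and pot, chosen after their values were seen, were also highest in that library, with pio at 5.75 and 3.40 against 9.96, 15.3 and 49.7 CPM. The tracheal gene dys stood at 0.0524 and 0.0163 against 1.31, 2.48 and 4.48 CPM (edgeR adjusted p = 0.016), with 3 and 1 counts in yw. The part of such tissues in any result here was not tested. Without 12xWT replicate 3 there were 834 higher and 629 lower genes in all, and the tracheal and cuticle list had 4 higher and 1 lower. Without yw replicate 1 or 2 it had none, and DESeq2 called 3 higher and 0 lower, while 1 gene was called without 12xWT replicate 2.

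Over all tested genes, the share to set beside each count in this paragraph, 8.95% were higher and 7.86% lower. Of 13 hemocyte genes 3 rose and 0 fell (median 0.11, from 0.07 to 0.30 with a library left out). Their summed level was 288 and 273 CPM in yw against 343, 287 and 305 in 12xWT, with overlapping libraries. The scavenger receptor gene crq stood at 61.5 and 61.8 against 78.1, 86.5 and 84.4 CPM (0.41, SE 0.051, edgeR adjusted p = 0.00302), and NimC1, a phagocytosis receptor, at 0.0699 and 0.0163 against 1.13, 0.952 and 0.665 CPM (edgeR adjusted p = 0.00285), with 4 and 1 counts in yw. These held without each library, and PPO3 did not hold without either yw library. Of 20 testis and germline genes 10 were tested and 4 rose, with all 10 above 0 and a median of 0.71, or 0.46 without yw replicate 1. The germline differentiation gene bam stood at 1.47 and 1.203 against 3.19, 4.55 and 3.83 CPM (1.51, SE 0.20, edgeR adjusted p = 0.00407), and its exons overlap CG11854. The piRNA pathway genes aub and AGO3 rose by 0.96 (SE 0.13) and 0.88 (SE 0.16), and mia by 0.62 (SE 0.11). The list had 1 and 0 higher without yw replicate 1 or 2. In muscle, salivary gland, eye disc and imaginal disc lists, of 16, 10, 17 and 15 genes tested, 0, 1, 0 and 0 rose and 1, 0, 1 and 2 fell. These were TpnC47D, sage, Rh5, vg and rn, of which none was called without yw replicate 1, and sage and rn were without replicate 2.

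**Figure D3:**
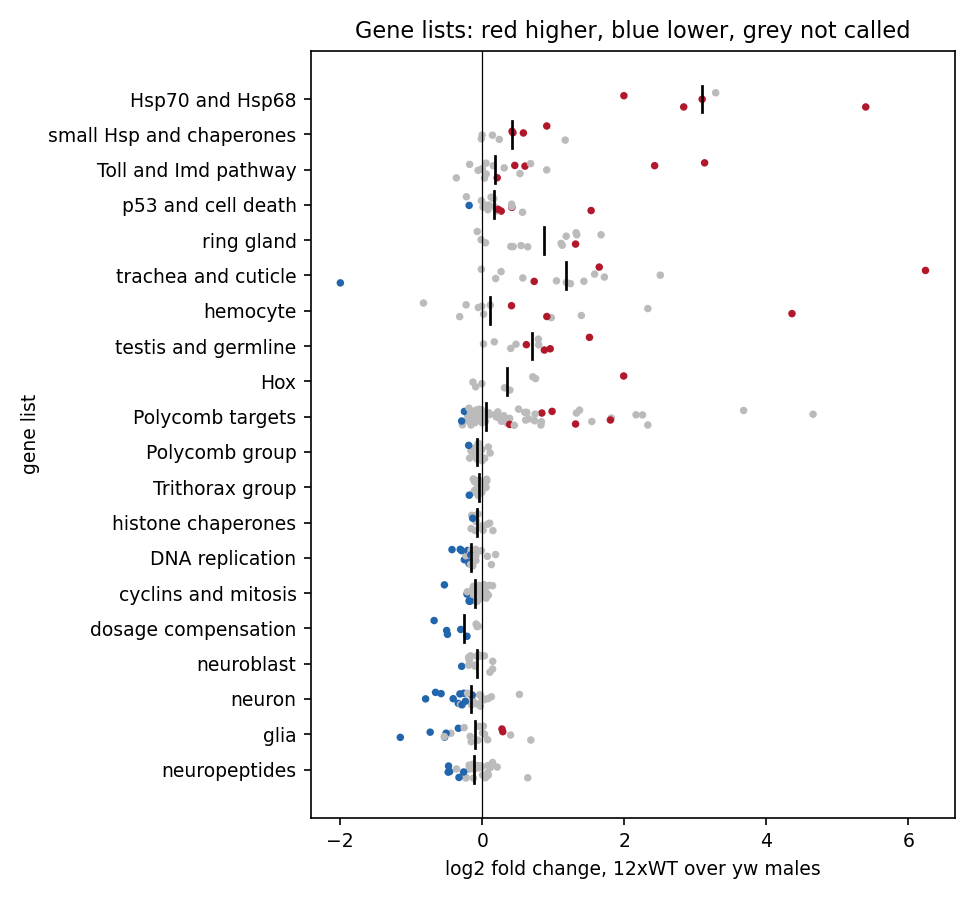
Each point is the log2 fold change of a tested gene in 12xWT over yw males (horizontal axis), by gene list (vertical axis), with the list median as a black bar. The neuron and DNA replication lists hold blue points and 0 red ones, with medians of -0.15 and -0.15. The glia list holds 5 blue and 2 red points, with a median of -0.11. All 5 Hsp70 and Hsp68 genes lie above 0, with a median of 3.10.

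Dosage compensation in the fly doubles transcription from the X of males through a complex of MSL proteins and the roX RNAs. Of its 8 genes 5 were lower in 12xWT males and 0 higher, with all 8 below 0 and a median of -0.26, where 7.86% of all genes were lower. The RNA roX1 (chromosome X, 3857230 to 3862697, minus strand) stood at 3139 and 2953 CPM in yw against 2099, 2535 and 1949 in 12xWT (-0.49, SE 0.12, edgeR adjusted p = 0.0436). The RNA roX2 (chromosome X, 11579065 to 11580432, plus strand) stood at 65.3 and 67.8 against 42.6, 48.0 and 35.7 CPM (-0.68, SE 0.13, edgeR adjusted p = 0.0296). The male-limited subunit gene msl-2 stood at 157 and 152 against 122, 139 and 119.5 CPM (-0.30, SE 0.072, edgeR adjusted p = 0.0366). All 12xWT libraries lay below both yw libraries at each of the 3, as at 22.6% of all tested genes, and 12xWT replicate 2 was nearest to yw. The subunit gene msl-3 fell by 0.50 (SE 0.043, edgeR adjusted p = 0.000569) and the adaptor gene Clamp by 0.21 (SE 0.032, edgeR adjusted p = 0.00633), while msl-1, mle and mof were at -0.06, -0.09 and -0.07 and not called. Of these calls msl-3 alone held without each library. Without either yw library 1 gene of the 8 was lower, without 12xWT replicate 1 there were 2, and without replicate 3 there were 3. The exons of roX1 overlap ec, those of msl-2 a microRNA gene, those of msl-3 form3 and those of Clamp CG42748. The gene msl-3 lies in a stretch of 3L, described below, where 32 of 41 genes were lower, with a median of -0.45.

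X-linked genes as a whole were close to 0. Over all tested genes 8.95% were higher and 7.86% lower. The median log2 fold change of 1858 X-linked genes was -0.015, with 126 higher (6.78%) and 153 lower (8.23%), and that of 8896 genes of the large autosome arms 0.009, with 835 and 695. The fourth chromosome stood at -0.06 over 95 genes, with 2 higher and 5 lower. Sxl, the switch gene of female development, stood at 286 and 331 CPM in yw males and at 351, 263 and 355 CPM in 12xWT males and was not called (edgeR adjusted p = 0.87). Of 11 sex determination genes 0 rose and 2 fell, the splicing regulator gene tra2 by 0.22 and its target fru by 0.21, with 1 and 0 lower without yw replicates 1 and 2. All 9 tested Y-linked genes were higher in 12xWT. Among them fdy (chromosome Y, 3022289 to 3024026, plus strand) stood at 0 and 0.0813 CPM in yw against 14.01, 16.5 and 16.3 in 12xWT (8.45, SE 0.43, edgeR adjusted p = 0.000548), and the others belong mostly to the repeated Su(Ste) family. Summed over the Y, the counts were 7 and 16 in the yw male libraries and 1600, 1208 and 1258 in the 12xWT male libraries. The Y-linked level was not low in all female libraries, at 4.79, 18.1 and 4.39 CPM in 12xWT against 20.02, 23.0 and 22.001 CPM in 12xWT males. The 12xWT females also held roX2 at 7.34, 15.1 and 9.29 CPM, against 0.0769 and 2.88 CPM in yw females. Whether pools of a labelled sex were mixed was not tested, for male or for female pools. At roX1, roX2 and msl-2 an effect of genotype and a mixed male pool cannot be told apart. The male fit uses no female libraries. The test of a difference between the sexes and every 12xWT female value given here do use those libraries, so an effect of sex and a mixed pool cannot be told apart in them.

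The effect of genotype in males was set against that in females by a test of the difference over all 10 libraries, which called 0 of 11146 genes (0%) by edgeR. There were 456 genes at an unadjusted p under 0.05, the smallest adjusted p was 0.111, and DESeq2 called 11 genes (0.0987%). Leaving out 12xWT female replicate 2, which had the most Y-linked RNA of the female libraries, also gave 0 calls by edgeR. The genes named here by rule were baz, CG43921, Sik2 and CG32521 on the X and Obp56d on 2R. The gene baz (FBgn0000163, chromosome X, 17160006 to 17200705, plus strand) was at 79.7 and 77.7 CPM in yw females, close to yw males, and at 49.9, 47.6 and 48.5 CPM in 12xWT females, between yw and 12xWT males. Its log2 fold change was -1.24 in males and -0.72 in females (edgeR adjusted p = 0.111 for the difference). CG43921 showed the same order, with 376 and 358 against 181, 171 and 179 CPM in males and 416 and 402 against 272, 258 and 278 CPM in females. Sik2, a salt-inducible kinase gene whose exons overlap CG4313 and CR44896, fell by 1.15 (SE 0.053) in males, from 231 and 227 CPM to 105, 97.1 and 111 CPM, and by 0.65 in females. In males these 3 held without each library. CG32521 was higher in 12xWT males by 0.13 (SE 0.035, edgeR adjusted p = 0.0459) and lower in 12xWT females by 0.15, and the male call was lost without yw replicate 1 or 2 and without 12xWT replicate 1 or 2. Obp56d, an odorant binding protein gene under 1 CPM, was at -2.86 in males and 2.54 in females. Its male call was lost without either yw library.

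**Figure D4:**
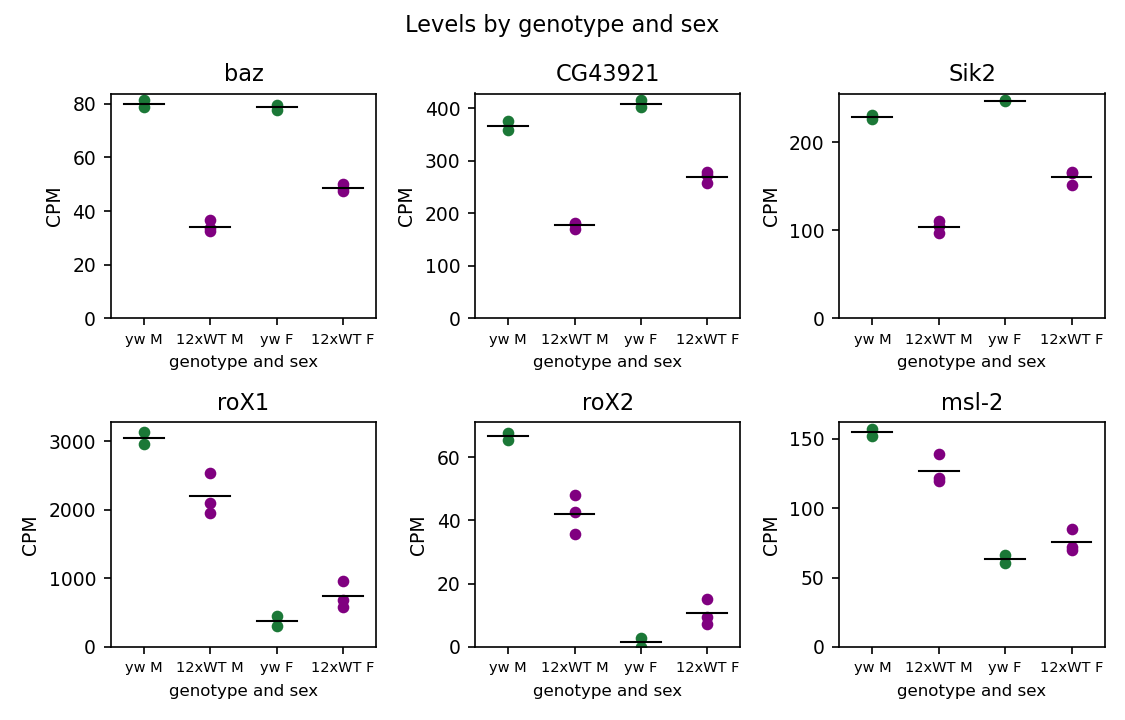
Level in CPM in each library (points, vertical axes from 0) with the group mean as a bar, by genotype and sex (horizontal axes), for baz, CG43921, Sik2, roX1, roX2 and msl-2. At baz, CG43921 and Sik2 the 12xWT females lie between yw and 12xWT males, and at roX1, roX2 and msl-2 the 12xWT males lie below yw males and the 12xWT females above yw females.

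The female libraries, fitted alone, gave a second set of values for the same genotypes, an analysis added after the data had been seen. In females 832 genes were higher (7.65%) and 524 lower (4.82%) in 12xWT, 12.5% in all. Of 1796 male calls tested in females, 1777 (98.9%) had the same direction there, as had 79.4% of all 10687 genes tested in both. There were 965 genes called in both sexes in the same direction, 53.7% of those male calls and 71.7% of the 1345 female calls. Another 2 of those male calls were called in females in the opposite direction. Of 433 male calls of at least 2-fold 431 had the same direction, and the exceptions were Obp56d and CG14277, at 1.28 CPM or less in males. Ubx rose in females by 2.17 and Cyp4p2 fell by 6.78, as CG17352, CG10936, Ady43A, CG10353 and Lamp1 also changed in the direction seen in males. Among the neuron genes 4 of 24 were called lower and 1 higher in females, and among the DNA replication genes 2 of 30 lower and 1 higher.

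A run of neighbouring genes on chromosome arm 3L was lower in 12xWT, msl-3 among them. Windows of 20 genes along each arm, from 7490 genes of at least 5 CPM, held a median of 2 lower and 2 higher calls over 7375 windows. Neighbouring windows overlap, and the window rule was itself chosen after the data had been seen. The window from Mp to eco on 3L held 17 lower and 0 higher, and the next highest window that did not overlap it held 10. The stretch from tow to smid (6942856 to 7385637, 443 kb), whose ends were chosen after the values were seen, held 41 genes of at least 5 CPM. Of these 32 were lower (7.86% of all genes) and 0 higher, and the median log2 fold change was -0.45, a ratio of 0.730. Relative to the yw mean, the median level over these genes was 0.736, 0.718 and 0.735 in the 12xWT libraries and 0.973 and 1.03 in the yw libraries. The ratio was nearly the same in the 3 12xWT libraries. At the left end tow stood at 206 and 207 CPM in yw against 144, 146 and 136 CPM, and at the right end smid at 398 and 421 against 288, 283 and 282 CPM. Between them lay RpL18, a ribosomal protein gene (928 and 1048 against 724, 687 and 778 CPM, not called without yw replicate 2), Dscam2, a receptor of neuronal wiring (-0.44, SE 0.050, edgeR adjusted p = 0.00203), akirin, a nuclear cofactor of transcription (-0.46, SE 0.041), Sec63, of the translocon (-0.53, SE 0.039), MED4, of Mediator (-0.69, SE 0.054), and eco, needed for sister chromatid cohesion (-0.66, SE 0.071).

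Outside the stretch the difference ended. The 20 genes to the left had a median of 0.03, with 2 lower and 1 higher, and the 20 to the right 0.06, with 0 lower and 5 higher. In the separate female libraries 31 of the 41 were lower and 0 higher, with a median of -0.42. Over all genes tested in females 4.82% were lower and 7.65% higher. Leaving out a male library gave 25 and 21 lower without yw replicate 1 or 2, and 32, 30 and 31 without 12xWT replicates 1 to 3. The 9 genes that were not called were sgl, Mis12, CR32385, form3, melt, CG8607, CG8596, pst and Sh3beta. DNA copy number was not measured here.

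**Figure D5:**
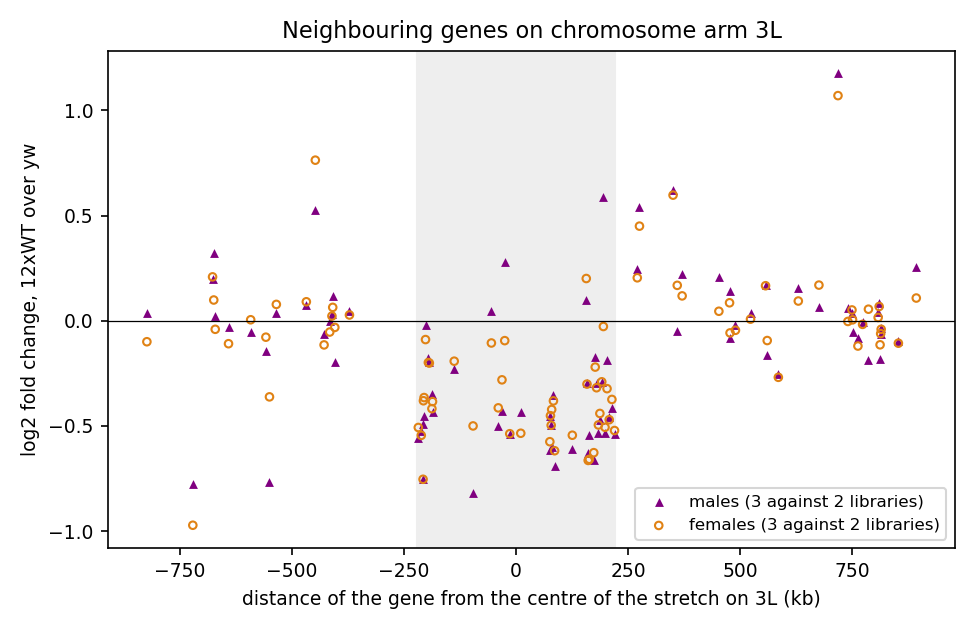
The log2 fold change of 12xWT over yw (vertical axis) for genes of at least 5 CPM against their distance in kb from the centre of the stretch on 3L (horizontal axis), with males as triangles and females as open circles. Inside the shaded 443 kb most genes lie near the male median of -0.45 in both sexes, and outside it they scatter around 0.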

How the data were processed

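The deposited table holds whole-number read counts per gene. Per the labels, RNA was extracted with Trizol, polyA-selected and made into libraries with a KAPA stranded mRNA kit. Per the submitters' processing notes, the tools included STAR 2.7.7a, SAMtools 1.9, Subread 2.0.1 and DESeq2 1.34.0, with the dm6 build. Their order is not given in the sources used here. Per the file headers, the authors counted read pairs over exons with featureCounts, with no strand option and no multi-mapping option, so overlapping and near-identical genes are uncertain. The authors' deposited comparison table, which pools the sexes, was not used.

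Of 16727 genes, edgeR's filterByExpr kept 10858, which removed at most 0.0195% of a library's counts. Counts were scaled with TMM (factors 0.992 to 1.01) and fitted with the robust quasi-likelihood model of edgeR 4.0.16 in R 4.3.3 (limma 3.58.1) to the 5 male libraries, with 3 residual degrees of freedom and Benjamini-Hochberg adjustment. SEs were taken from the fold change and F. The biological coefficient of variation was 10.1%. Depth was 52.5 to 79.9 M counts, and replicate counts differed by more than sampling noise. The sex difference was fitted on all 10 libraries, and females alone as an addition made after the data were seen. DESeq2 1.42.0, other scalings and filters, and omission of each library were alternatives. The scripts were tested on simulated data.

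Named genes were (a) the 8 largest rises and falls among called, non-overlapping genes sharing no exon that reached 5 CPM, (b) the 5 largest with 50 CPM, (c) the 5 smallest p for the sex difference, and called genes of 35 lists. The members and lists were chosen with earlier results of these data known. Genes named otherwise were chosen after their values were seen. Positions are from the annotation of the dm6 assembly.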

Additional observations from a re-analysis of the deposited data

How the results depend on the processing

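In the 5 male libraries the counts of higher and lower genes were 972 and 853. They were 597 and 485 among genes that share no exon, where fewer genes were tested, and 322 and 140 with a 2-fold requirement, which is stricter by construction. Leaving out 1 library gave 213 to 1082 higher and 151 to 918 lower genes, lowest without yw replicate 2. Other scalings, filters, DESeq2 and the fit of all 10 libraries stayed within 1.5 times. With the replicate number as a block, 771 were higher and 474 lower. Same-numbered libraries correlated at 0.0061 and 0.101 in 2 pairs, on deviations from the group mean. With 2 yw libraries these deviations mirror each other, so the values cannot show whether same-numbered libraries share a batch. The labels do not say that they do, so the block is no paired test. For the sex difference, 0 genes were called by edgeR, 11 by DESeq2 and 3 with no filter on low counts, and leaving out a library gave 0 to 3. Of 137 named genes that were called, 131 kept the call under DESeq2, 102 under the block, 56 and 52 without yw replicates 1 and 2, and none reversed. Among genes not called, the direction turned for Sxl (-0.033 under the block, -0.052 to 0.18 without a library), abd-A (-0.20, and -0.20 to 0.64), Abd-B (-0.069, and -0.057 to 1.05) and elav (0.0088, and -0.067 to 0.0086). The causes were not tested. With 2 yw libraries, low genes limit what can be called: the smallest called change was 0.88 (log2) under 1 CPM and 0.12 at 100 CPM or more.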

Other observations

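Outside the stretch on 3L, no window of 20 neighbouring genes held more than 10 lower calls, that from CG10424 to CG9300 on 3L, or more than 8 higher calls, reached by rdo to MESR3 on 2L, Tsp42El to CG11141 on 2R and Rep to CG8920 on 2R. In 12xWT replicate 3, ImpE2 stood at 166 CPM against 14.3 and 54.8 CPM in the other 12xWT libraries and 22.6 and 6.45 CPM in yw, and pot at 53.6 CPM against 15.6 and 16.9 CPM and 7.94 and 5.97 CPM. CG14277 was lower in 12xWT males (-1.94, SE 0.40, edgeR adjusted p = 0.0197), lost without either yw library, and at 2.26 in females (edgeR adjusted p = 0.0935). Its exons overlap CG43057.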
